A study of Mus musculus with 383 samples.

Results

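Among Epcam-negative cells sorted from mouse skin squamous cell carcinomas, 90 cells with Vcam1 at 50 CPM or more (reads of a gene per 1000000 gene reads of the cell) were compared with the remaining cells, in which Vcam1 was under 50 CPM. Both classes were chosen by their Vcam1 values, so the Vcam1 difference itself is a description and not a finding. Of 310 wells labelled as single Epcam-negative cells, in a series of 383 wells, 47 were left out by quality filters; the 90 expressing cells were 34.2% of those kept, and the low class held the 94 kept cells without a Vcam1 read and 79 with fewer reads than the boundary. The tumours arose in mice with the alleles Lgr5CreER, p53fl/fl and Rosa26-YFP+/+, among others, in which Cre active in Lgr5-expressing cells, a set that includes hair follicle stem cells, removes p53 and marks the recombined cells and their descendants with YFP. Both classes share this genotype and came through the same gate, which took living single YFP-positive cells without surface Epcam. No treatment or time point separates them, and the labels name no age, animal or culture. All cells therefore count as 1 sample, cells are not replicates, and no test between the classes was possible: every interval below covers counting error only.

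Vcam1 (CD106) is an adhesion molecule of the immunoglobulin superfamily, best known on endothelium activated by inflammatory cytokines, where it holds passing leukocytes through the integrins Itga4-Itgb1 and Itga4-Itgb7. Its gene is a classical target of NF-kB, ERM proteins such as ezrin and moesin tie its cytoplasmic tail to actin, and the protease Adam17 sheds its extracellular part. Stromal and mesenchymal cells also make it, and in skin carcinoma it has been used together with the integrins Itgav and Itgb3 as a surface marker of tumour cells that have lost epithelial character, a process named epithelial to mesenchymal transition (EMT). The gene (ENSMUSG00000027962.14) lies on the minus strand at chr3:116109949-116129688 of build GRCm38.

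The exact 95% interval of the share of expressing cells was 28.5 to 40.3%. In these cells the lowest, median and highest Vcam1 levels were 51.9, 235.3 and 7311 CPM. The highest cell stood apart, since the next were at 1938 and 1290 CPM, and it held 13.4% of the 15172 Vcam1 reads of its class. In the Vcam1-low cells the median was 0 and the highest value 46.7 CPM. No gap marked the boundary, as the values just outside it were 46.7, 45.6 and 44.5 CPM and those just inside 51.9, 54.2 and 54.9 CPM. Raising the boundary to 100 CPM would leave 70 cells and raising it to 200 CPM 51. Summed over the class, Vcam1 was at 385.1 CPM in expressing cells and 5.83 CPM in low cells.

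**Figure D1:**
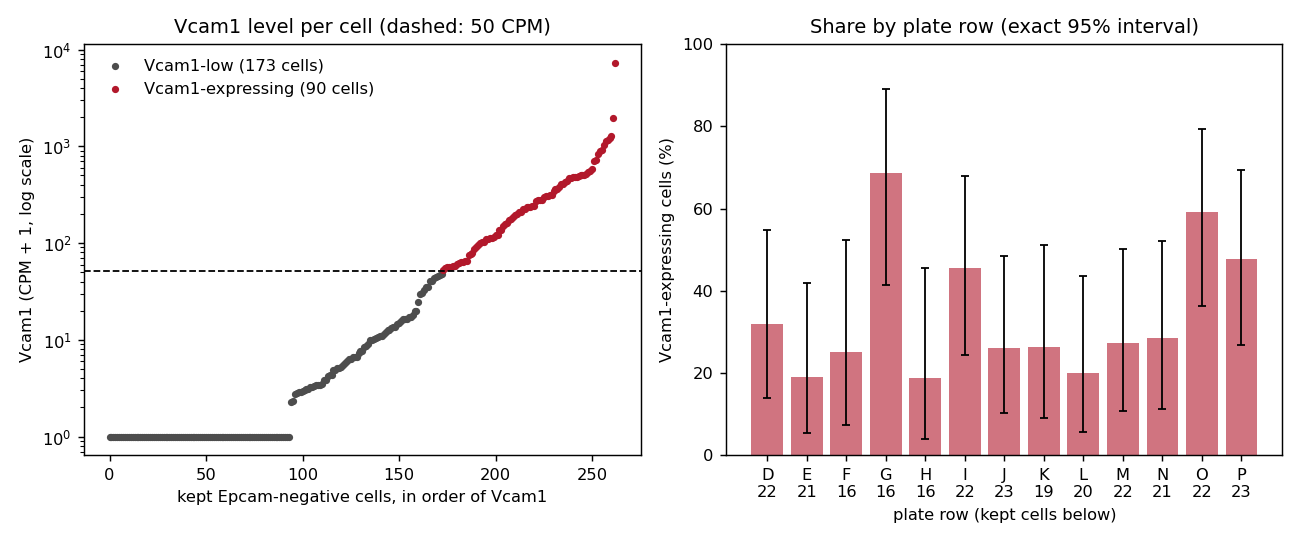
Left: Vcam1 level (CPM + 1, log axis) of each kept Epcam-negative cell in order of that level, red for the 90 Vcam1-expressing and grey for the Vcam1-low cells, with a dashed line at 50 CPM. Right: percentage of kept cells that were Vcam1-expressing in each plate row, with the number of kept cells under each letter and exact 95% intervals. The levels pass through the boundary without a gap, and the rows range from 18.75% to 68.75%.

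The expressing cells were spread over the plate, though not evenly by row. Their share was 35% among plate columns 1 to 12 and 33.3% among columns 13 to 24, and 34.5% in rows D to I against 34% in rows J to P. Single rows ranged from 18.75% (3 of 16 cells, row H) to 68.75% (11 of 16, row G), and rows O and P were at 59.1% and 47.8%. Whether cells in a row share a source is not given in the labels.

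Among 62 kept Epcam-positive cells, which sat in rows A to C, 1 reached 50 CPM of Vcam1 (1.61%, exact interval 0.0408 to 8.66) and 56 had no Vcam1 read. That cell held Vcam1 at 84.6, Epcam at 634.6, Krt14 at 10655 and Vim at 368.1 CPM, with epithelial transcripts far above the mesenchymal ones. The pool of 50 Epcam-negative cells had Vcam1 at 103.3 CPM (16 reads, exact Poisson interval 59.04 to 167.7). The wells set up with 0 cells held 2 Vcam1 reads among 99241 gene reads and 0 among 4018.

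The classes differed somewhat in depth. Gene reads per cell had a lowest, median and highest value of 124468, 453497 and 826639 in expressing cells and 104330, 388348 and 900492 in low cells. Medians of detected genes were 7020 against 6383, of the mitochondrial share 4.25% against 4.47%, and of gene reads for each spike-in read, a measure of RNA content, 178.5 against 148.2. The part of these differences in the results was not tested. Levels are given as CPM, and a gene was called present in a cell at 5 or more reads after every cell had been thinned to 100000 gene reads, which equals 50 CPM.

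Both classes carried the marks of the mesenchymal state of this tumour. Vim, an intermediate filament of mesenchymal cells, was present in 90 of 90 expressing cells and 96.5% of low cells. Epcam itself reached 50 CPM in 1 expressing and 9 low cells. Markers of other cell types that the gate could hold were looked for. Of 10 immune markers only Cd14 was measured (16.3 and 16.1 CPM), and the leukocyte gene Ptprc was at 0 and 0.147 CPM. Of 6 melanocyte markers 1 was measured and 2-fold higher, the transcription factor gene Mitf (10.8 against 3.86 CPM, ratio 1.28, present in 10.0% and 1.73% of cells); the pigment genes Tyr, Dct, Pmel, Mlana and Tyrp1 were under 2 CPM in both classes. The part of this in the results was not tested. No endothelial (8 markers), erythroid (5) or Schwann cell (6) marker was measured, and Cdh5, the endothelial cadherin, was at 0 and 0.0589 CPM. Ptprc and Cdh5 were thus at or near 0 in the sums of both classes, which can hide single cells. The highest sum of the immune markers in 1 cell, Cd14 included, was 273.3 CPM in expressing and 877.6 CPM in low cells. For the endothelial markers it was 199.6 and 142.3 CPM.

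Reads were summed over the cells of each class, scaled to CPM, and compared as log2((CPM expressing + 1)/(CPM low + 1)). A gene counted as measured at 10 CPM or more in either class. Of 9166 measured genes, 2.06% were 2-fold or more higher in Vcam1-expressing cells and 3.19% 2-fold or more lower, with a median log2 ratio of -0.03. Many of these were seen in few cells: 82 of the higher genes were present in under 10% of expressing cells, and 160 of the lower genes in under 10% of low cells. Of the 894 genes at 200 CPM or more in either class, 7 were 2-fold higher and 9 2-fold lower. The direction was the same in both column sets and both row sets for 83.6% of the higher and 82.5% of the lower genes. These genes were picked by their ratio over all cells, and the column sets and row sets are parts of those cells. A shared direction is therefore largely built in and is no separate support. Fewer of the higher and of the lower genes were 2-fold in both column sets than shared a direction. Scaling to spike-ins in place of gene reads raised the median ratio to 0.26 and the share of 2-fold genes that were higher from 39.3% to 69.6%, so directions below are relative to all gene reads. Counts of list members past 2-fold are to be read beside the 2.06% and 3.19% over all measured genes. A short list with none past 2-fold is near those shares.

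Several chemokine and cytokine genes were higher in Vcam1-expressing cells. Of 22 members, 19 were measured, 13 were higher and 6 of these 2-fold or more (against 2.06% of all measured genes), 2 were 2-fold or more lower, and the median log2 ratio was 0.39. Without the 10 cells with Epcam at 50 CPM or more, 3 members were 2-fold higher, with Cxcl12 at 0.97, Ccl2 at 0.94 and Csf3 just under 2-fold, and the median was 0.46. Cxcl12, the stromal ligand of the receptor Cxcr4, had a lowest, median and highest level of 11.1, 1103 and 8099 CPM in expressing cells and 0, 395.3 and 7333 CPM in low cells. The ranges overlapped almost entirely, but the median expressing cell stood well above the median low cell. Summed levels of Cxcl12 were 1752 and 859.5 CPM, a log2 ratio of 1.03 (interval 1.01 to 1.04), and the gene was present in 95.6% and 81.5% of cells.

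The monocyte attractants Ccl2 and Ccl7, neighbours on chromosome 11, differed by as much. Ccl2 had a median of 773.6 CPM in expressing and 163.9 CPM in low cells and a log2 ratio of 1.01. Ccl7 had medians of 137.5 and 36.4 CPM, summed levels of 1152 and 514.0 CPM and a log2 ratio of 1.16. For both genes some cells of each class had no read. The highest cell for each gene taken separately, at 38046 CPM for Ccl2 and 16048 CPM for Ccl7, was an expressing one.

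Csf1 and Il34, the 2 ligands of the macrophage receptor Csf1r, were both higher, at log2 ratios of 0.89 and 1.35. Csf1 was present in 61.1% of expressing and 42.2% of low cells, and Il34 in 23.3% and 8.09%. The neutrophil attractants were mixed: Cxcl5 had 485.6 against 270.2 CPM and a ratio of 0.84, close to that of Csf1, while Cxcl1, the most abundant member at 5743 and 4605 CPM, had a ratio of 0.32, and Cxcl2 a ratio of -0.15. The granulocyte factor Csf3 was past 2-fold (1.05), but 1 cell held 39.6% of its reads in the expressing class, and without the highest cell of each class the ratio was 0.68.

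Il33, an alarmin of epithelial and stromal cells, showed the largest ratio of the list (2.72), and it rested on few cells. It was present in 5.56% of expressing and 3.47% of low cells, 1 expressing cell at 4670 CPM held 81.2% of the reads, and the ratio was 4.08 on one side of the plate (columns 1 to 12) and -1.79 on the other (columns 13 to 24). Its receptor gene Il1rl1 (ST2) was seen more widely. Il1rl1 was present in 32.2% of expressing cells (exact interval 22.8 to 42.9) and 14.5% of low cells (9.58 to 20.6), at 170.6 and 53.6 CPM. Its log2 ratio of 1.65 was between 0.77 and 2.45 in the plate subsets. Il1rl1 is among the genes named below for a shared direction in those subsets, so that agreement is no support. Ligand and receptor were present together in 3 expressing cells and 1 low cell. On the lower side, Il1a, an epidermal interleukin, was at 3.17 CPM against 30.2 CPM (-2.90) and Tslp, a keratinocyte cytokine, at 9.52 against 29.2 CPM (-1.52), both present in under 7% of cells of either class.

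**Figure D2:**
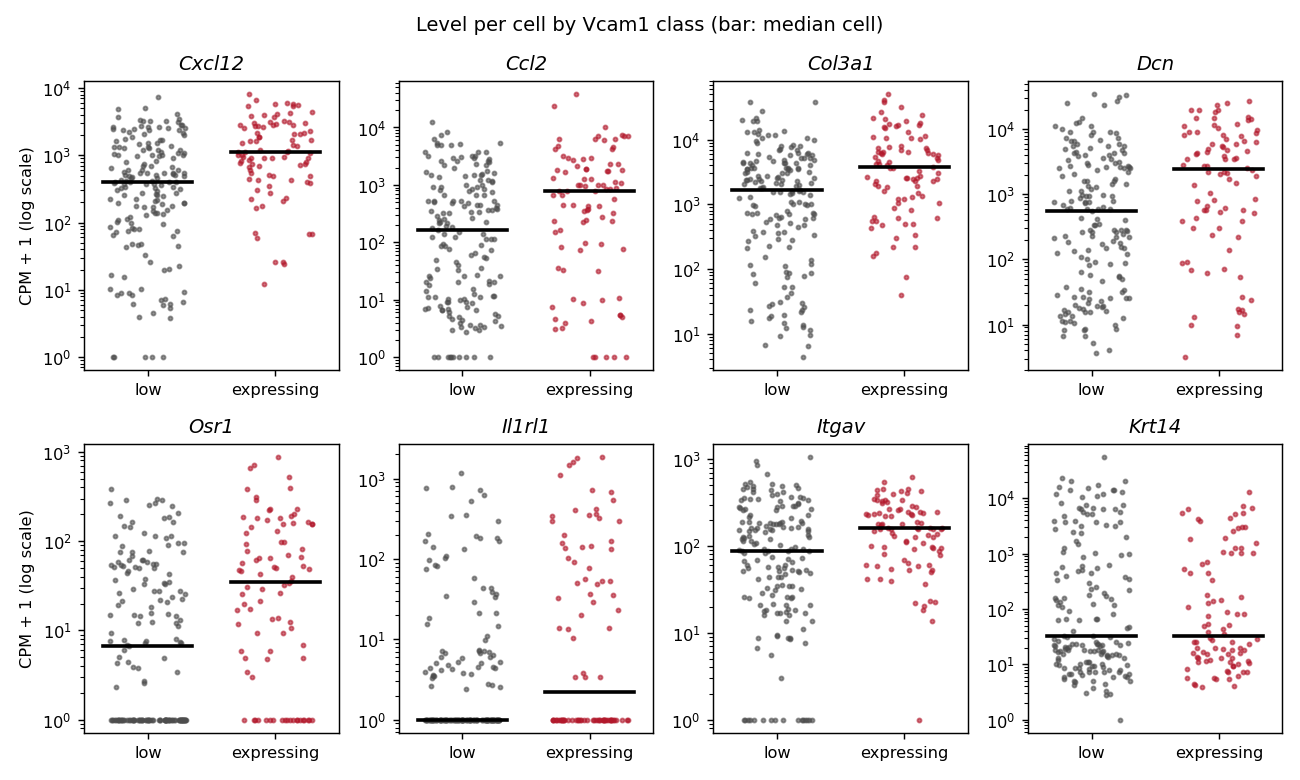
Level of 8 genes (CPM + 1, log axis) in every Vcam1-low cell (grey) and Vcam1-expressing cell (red, 90 cells), with a bar at the median cell. Cxcl12, Ccl2, Col3a1, Dcn, Osr1 and Itgav have higher medians in expressing cells, the Krt14 medians are 32.02 and 31.97 CPM, and the classes overlap for every gene shown.

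The NF-kB pathway is the textbook inducer of Vcam1, and its part in the Vcam1 classes was not tested. All 18 members of its list were measured, 14 were higher, and the median was 0.16. None was past 2-fold, which for a list of this length is near the 2.06% of all measured genes that were higher. Tnfaip2, a gene induced by tumour necrosis factor, came closest: its medians were 96.6 and 50.1 CPM, its summed levels 298.8 and 153.1 CPM, and its ratio 0.96. Irf1, an interferon-induced factor that acts with NF-kB, had a ratio of 0.66, while the feedback inhibitor genes Nfkbia and Tnfaip3 had ratios of 0.18 and 0.04. Icam1, a related adhesion molecule driven by the same pathway, went the other way, at 35.9 CPM in expressing and 59.2 CPM in low cells (-0.70). It was present in similar shares, 17.8% and 19.7%.

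The listed receptors for inflammatory cytokines, which leave out Il1rl1 (ratio 1.65), were mostly near equal. Of 12 measured, 10 were higher and 1 past 2-fold, the interleukin-17 receptor subunit Il17ra (21.1 against 8.86 CPM, ratio 1.16), and the median was 0.09. The tumour necrosis factor receptor gene Tnfrsf1a was at 133.6 and 132.5 CPM. Myd88, the adaptor of Toll-like and interleukin-1 family receptors including Il1rl1, had summed levels of 81.7 and 40.1 CPM (1.01). Without the highest cell of each class the Myd88 ratio was 0.71.

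The genes of Vcam1 binding partners were near equal between the classes or near 0. Itga4, the alpha subunit of both of its integrin receptors, was at 0.761 and 0.515 CPM and was present in 0 of 90 expressing cells (exact upper bound 4.02%) and in no low cell (2.11%). Itgb1 was abundant and near equal, with medians of 895.8 and 879.2 CPM and a log2 ratio of -0.12. Of the 6 measured receptor, linker and sheddase genes, none was past 2-fold: ezrin (Ezr) had a ratio of -0.48, moesin (Msn) -0.03, radixin (Rdx) 0.26 and Adam17 -0.07. Among 11 measured immunoglobulin-family adhesion genes, 3 were higher and 1, the junctional molecule Jam2, was 2-fold lower (5.46 against 28.3 CPM, ratio -2.18).

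Of the integrin genes used with Vcam1 as surface markers, Itgav was present in more expressing than low cells and Itgb3 was not set apart. Itgav was at a lowest, median and highest level of 0, 158.6 and 618.3 CPM in expressing cells and 0, 87.7 and 1061 CPM in low cells. It was present in 88.9% of expressing cells (exact interval 80.5 to 94.5) and 63.6% of low cells (55.9 to 70.8). Summed levels of Itgav differed less, at 179.8 and 148.5 CPM (0.27), and the highest Itgav level was in a low cell. Itgb3 was at 11.2 and 12.5 CPM (-0.14) and was present in 10.0% and 8.67% of cells, intervals 4.68 to 18.1 and 4.93 to 13.9. All 9 expressing cells with Itgb3 also had Itgav. Of 10 measured members of the integrin list, which leaves out the hemidesmosome subunits, none was past 2-fold.

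Most measured epithelial genes were lower in Vcam1-expressing cells. Of 44 listed keratins, junction genes and epithelial regulators, 23 were measured, 21 were lower, and 13 were 2-fold or more lower, against 3.19% of all measured genes, with a median log2 ratio of -1.23. The members that were higher were Cldn1 and Krt10, neither by 2-fold. The epithelial median was -0.53 in rows D to I and -1.45 in rows J to P. Summed over the list, cells ranged from 23.3 to 18824 CPM with a median of 687.2 in the expressing class and from 18.99 to 94544 CPM with a median of 879.7 in the low class, so the classes overlapped and the highest cells were low ones. For basal keratins the difference lay in how high the cells at the upper end reached and not in how many cells had the transcript. Krt14, the basal keratinocyte keratin (chr11:100203162-100207548, minus strand), had a lowest, median and highest level of 2.85, 32.02 and 13320 CPM in expressing cells and 0, 31.97 and 56264 CPM in low cells. The medians coincided, the upper quartiles were 941.7 and 1067 CPM, and the upper ends differed most. Krt14 was present in 48.9% and 49.7% of cells, while summed levels were 837.6 and 2416 CPM (-1.53). Without the highest cell of each class the Krt14 ratio was -1.42. The partner of Krt14, Krt5, was likewise present in 24.4% and 27.2% of cells, with summed levels of 144.6 and 731.8 CPM (-2.33). Krt17, a keratin of hair follicle and wounded epidermis, had a ratio of -2.86 and Krt18 of simple epithelia -2.02. Members of the keratin family share sequence, and how shared reads were counted is not given in the sources used here.

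Trp63 (p63), the master regulator of stratified epithelium, differed in share as well. It was present in 8.89% of expressing cells (exact interval 3.92 to 16.8) and 19.7% of low cells (14.01 to 26.4), at 13.9 and 63.5 CPM (-2.12). Among junction genes, the tight junction molecule F11r (Jam-A) was present in 23.3% and 37.0% of cells with a ratio of -1.54, and desmoplakin (Dsp) had a ratio of -1.59. Perp, a desmosomal gene and p53 target, was present in 57.8% and 55.5% of cells with a ratio of -1.10. Cldn1, a claudin of tight junctions, was the 1 measured member of the junction list that was higher (0.53). Epcam had a ratio of -1.96 that came from the 1 and 9 cells at 50 CPM or more, and without those cells it was 0.48. Leaving those 10 cells out, the same 23 epithelial genes had a median of -0.75 and 17 were lower. By 2-fold or more, 9 were lower and 1, a keratin, was higher, beside 2.84% of measured genes lower and 2% higher.

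Genes of the machinery that anchors basal cells to the basement membrane were lower too. All 10 members of the list were measured, 9 were lower, and the median was -0.88. By 2-fold or more 5 were lower, against 3.19% of all measured genes. Col17a1, the transmembrane collagen of hemidesmosomes, was at 40.8 and 168.6 CPM (-2.02), and the laminin chains Lama3 and Lamb3 had ratios of -1.97 and -2.01. The integrin subunit Itga6 had medians of 22.9 and 32.9 CPM and a ratio of -1.20, and its partner Itgb4 a ratio of -0.55. Plec, a linker to keratin that other cell types use as well, was at 0.30. Outside this list, the basement membrane chain Lama5 differed in share, being present in 23.3% of expressing and 46.2% of low cells with medians of 3.67 and 34.5 CPM.

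Transcripts of keratinocyte differentiation were rare in both classes: 4 of 11 members were measured, and all 4 were lower. Past 2-fold were 2, Krtdap (-3.29) and Sprr1b (-2.30), against 3.19% of all measured genes. Krtdap was present in 4.44% and 12.7% of cells.

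Mesenchymal genes leaned the other way without reaching 2-fold. Of 36 measured matrix, transcription factor, cytoskeleton and surface genes, 30 were higher, 0 were past 2-fold in either direction, and the median was 0.22. The largest differences of level were in fibrillar matrix. Col3a1, the type III collagen, had a lowest, median and highest level of 38.9, 3730 and 50428 CPM in expressing cells and 3.35, 1666 and 38451 CPM in low cells, a ratio of 0.88. Postn (periostin, a matricellular protein) had medians of 2373 and 708.1 CPM and a ratio of 0.85. Col1a1 at 0.28 and Fn1 at -0.04 differed little in sum. The mesenchymal median was 0.55 in rows D to I and 0.04 in rows J to P, where the Col3a1 ratios were 1.48 and 0.24 and the Postn ratios 1.60 and 0.14. For the intermediate filament gene Vim the medians were 5758 and 5383 CPM and the ratio 0.07.

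The cells in which Col1a1 was not present were all Vcam1-low. Col1a1 was present in 90 of 90 expressing cells and 90.2% of low cells. The EMT transcription factor list had all 6 measured members higher, none by 2-fold, with a median of 0.29. Prrx1 was present in 92.2% (84.6 to 96.8) and 73.4% (66.2 to 79.8) of cells and Zeb1 in 45.6% (35.02 to 56.4) and 28.3% (21.7 to 35.7), though their summed levels differed by log2 ratios of 0.16 and 0.59 only. Snai1 had the largest ratio of these factors, 0.74.

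Small leucine-rich proteoglycans, which bind collagen fibrils and growth factors in connective tissue, were higher as a group. All 8 were measured, 7 were higher, and the median was 0.76. By 2-fold, 1 was higher and 1 lower, against 2.06% and 3.19% of all measured genes. Dcn (decorin) had a median of 2432 CPM in expressing cells and 551.6 CPM in low cells and a ratio of 0.77. Fmod (fibromodulin) reached 1.18, with ratios of 1.88 and 0.21 in the plate column sets. Aspn was present in 73.3% and 48.6% of cells. Lum went against the group (-1.30), present in 6.67% and 9.25% of cells, and its ratio was 1.46 in rows D to I and -4.16 in rows J to P.

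Some of these matrix genes also mark dermal fibroblasts. Of 10 fibroblast markers 9 were measured, 6 were higher and 1 was 2-fold lower, with a median of 0.37. Their summed level per cell ranged from 31.8 to 29432 CPM with a median of 4781 in expressing cells, and from 36.3 to 43496 CPM with a median of 1696 in low cells. Dcn, the most abundant, carries much of that sum. Of 9 pericyte markers 5 were measured, 2 higher and 3 lower, 2 of the latter past 2-fold, and the list median was -0.86. Pdgfrb (0.07) and Cspg4 (0.11) were near equal, Ndufa4l2 was at -1.18, and Rgs5 was at 0.178 against 20.8 CPM, present in 2.89% of low cells, with 47.1% of the reads of that class in 1 cell. The sort kept YFP-positive cells, and the part of other cell types in these differences was not tested.

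**Figure D3:**
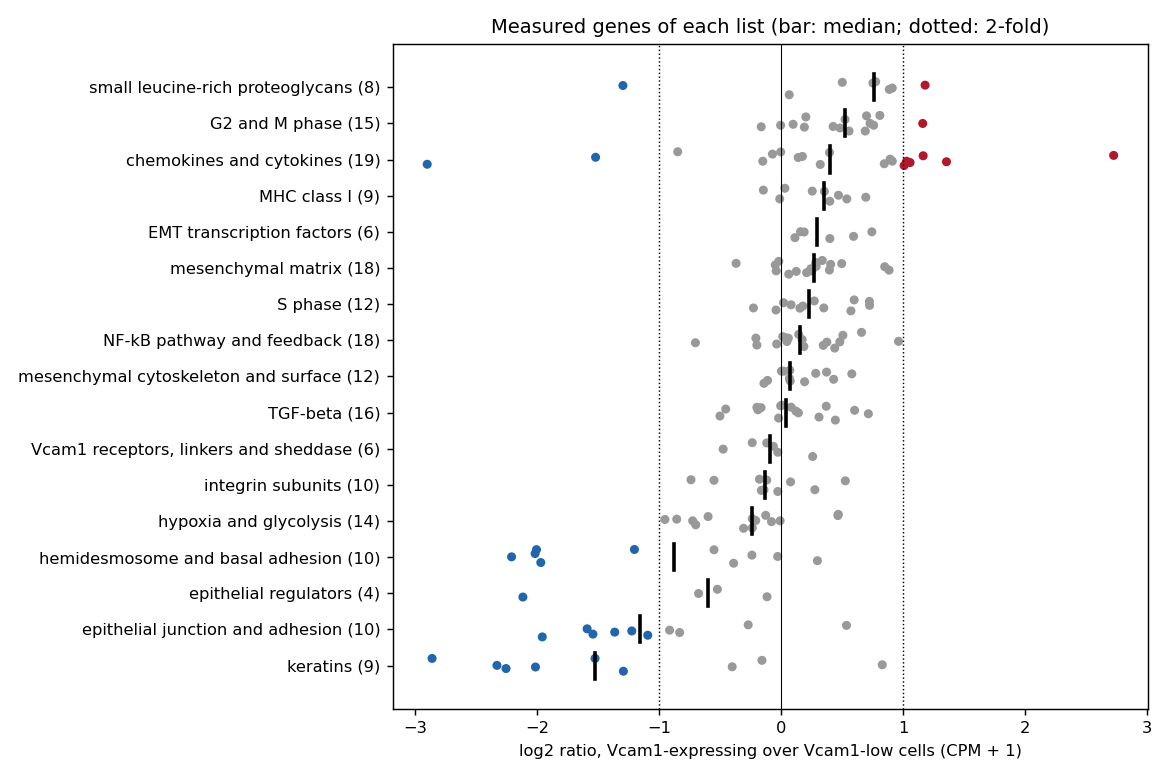
Log2 ratio (CPM + 1) of Vcam1-expressing over Vcam1-low cells for each measured gene of 17 lists, with the number of measured genes in brackets, a bar at the list median and dotted lines at 2-fold. Red genes are 2-fold or more higher and blue genes 2-fold or more lower. Keratin, junction and hemidesmosome medians lie between -1.53 and -0.88, and the proteoglycan median at 0.76 lies farthest to the right.

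Genes were also taken across the whole table that were present in at least 30% of the cells of the higher class, at 50 CPM or more, with the same direction in all 4 plate subsets. The 12 with the highest ratios were Mest, Il1rl1, Rcan1, Steap4, Osr1, Nfia, Fmod, Ccl7, Bdnf, Pde4d, Cxcl12 and Myd88, from 1.72 down to 1.01. Osr1, a zinc finger factor of embryonic mesenchyme and connective tissue progenitors, had medians of 34.2 and 5.71 CPM and was present in 50.0% and 21.97% of cells. Its ratio of 1.32 was between 0.99 and 1.54 in the subsets, where a shared direction was a condition of the choice. Pde4d, a phosphodiesterase that breaks down cyclic AMP, was present in 43.3% and 19.7% of cells (1.133), and the transcription factor Nfia in 38.9% and 23.7% (1.24).

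Mest, an imprinted gene of mesodermal tissue, had the highest ratio of this set, 1.72, with 494.6 and 149.9 CPM. It was present in 47.8% and 33.5% of cells, and the highest expressing cell was at 7414 CPM and the highest low cell at 2321 CPM. Rcan1, a calcineurin regulator, had a ratio of 1.58 of which 1 cell at 13733 CPM held 41.8% of the reads, and the ratio without the highest cell of each class was 0.90. The metalloreductase gene Steap4 (1.46) and Csf3 had their highest expressing cell in that same well. The neurotrophin gene Bdnf had a ratio of 1.15.

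The 12 with the lowest ratios were Fabp5, Dsp, F11r, Krt14, Prpf39, Sfn, Itga6, Lama5, Ero1l, Perp, Slc12a2 and Limk2, from -1.65 to -1.02. Fabp5, an epidermal fatty acid binding protein, was present in 42.2% of expressing and 36.4% of low cells, and its ratio was -0.82 without the cells with Epcam. Slc12a2, a sodium, potassium and chloride transporter, differed in share, 36.7% against 54.3%, and kept its ratio without the Epcam cells (-1.05 and -1.06). The Prpf39 ratio of -1.43 rested on 1 low cell with 53.3% of the reads and was -0.50 without the highest cells.

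Across all kept cells, Spearman correlations of CPM with Vcam1 were low for all 5074 genes ranked. They are a description over cells that share a plate, a lane and a depth range. The highest were Cxcl12 (0.34), Aqp1 (0.32), Bgn (0.31), Crabp1 (0.30) and Col3a1 (0.28), followed by Scfd1, Osr1, Matn2, Ank and Dcn. The lowest were Lama5 (-0.24), Crip2 (-0.22) and F11r (-0.21). Cxcl12, a chemokine, was thus the gene most alike Vcam1 by this measure, ahead of any matrix gene.

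Levels were also laid out by the amount of Vcam1, as a description: the divisions use the Vcam1 values that chose the classes, and several of the genes shown were ranked by their correlation with Vcam1. Cells were divided into 94 with no Vcam1 read, 79 with a read but under 50 CPM, 39 at 50 to under 200 CPM and 51 at 200 CPM or more, with median gene reads of 363742, 420245, 463496 and 417983. Median Cxcl12 was 365.0, 460.7, 902.5 and 1615 CPM in that order. Median Col3a1 was 1594, 1866, 2776 and 4817 CPM. Median Ccl2 was 190.4, 139.5, 434.0 and 863.7 CPM and median Ccl7 18.3, 63.7, 29.2 and 209.5 CPM. Neither median went up at every step. The levels summed over each group did. Summed Ccl2 was 829.3, 1164, 1249 and 2603 CPM, and summed Ccl7 510.1, 518.2, 1021 and 1260 CPM. Il1rl1 was present in 9.57%, 20.3%, 23.1% and 39.2% of the cells. Mest was at 143.9, 156.3, 178.5 and 756.0 CPM in sum, with the highest sum in the last group. That last step was in the sum only. Mest was present in 48.7% of cells at 50 to under 200 CPM and 47.1% at 200 CPM or more. The median Mest level was also lower in the last group than in the group before it. A single cell of the last group held 20.3% of the Mest reads of the expressing class.

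Over whole lists, the median cell had a summed mesenchymal level of 37493, 40944, 43316 and 54573 CPM and a summed epithelial level of 1155, 664.7, 1011 and 517.6 CPM in the same order. The cell cycle sum over each group was 975.9, 713.7, 1528 and 882.2 CPM. Neither the epithelial level of the median cell nor the cell cycle sum stepped in 1 direction. The epithelial sum over each group went down at each step, at 7660, 3459, 2647 and 1592 CPM. Summed Krt5 was 1075, 361.9, 217.5 and 84.3 CPM, and summed Krt14 3408, 1346, 1074 and 641.9 CPM. Lama5 was present in 50%, 41.8%, 33.3% and 15.7% of cells, and Trp63 in 25.5%, 12.7%, 12.8% and 5.88%. The number of cells with Epcam at 50 CPM or more was 6, 3, 1 and 0. Itgav was present in 56.4%, 72.2%, 92.3% and 86.3%, with no further step above the boundary. Itgb3 stayed between 7.59% and 10.3%.

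**Figure D4:**
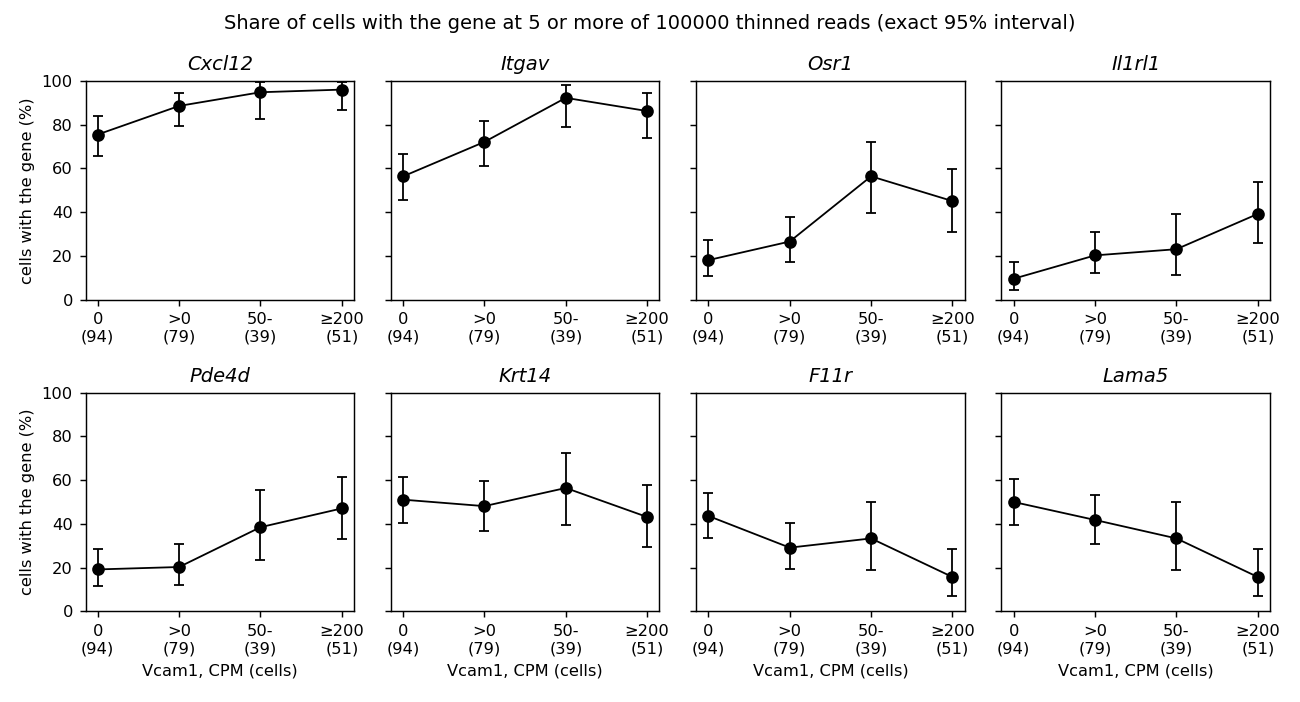
Percentage of cells in which each of 8 genes was present (5 or more of 100000 thinned gene reads), with exact 95% intervals, in cells grouped by Vcam1 level: no read, above 0 and under 50 CPM, 50 to under 200 CPM, and 200 CPM or more, with the number of cells in brackets. Cxcl12 and Il1rl1 go up at each step, F11r is lowest in the highest group, Lama5 goes down at each step, and Krt14 stays between 43.1% and 56.4%.

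Because Krt14 levels divided the Epcam-negative cells about evenly, the classes were also compared among cells with Krt14 under 50 CPM (49 expressing, 90 low) and at 50 CPM or more (41 and 83). With fewer cells more genes passed 2-fold: 5.23% were higher and 5.45% lower among 9118 measured genes in the first set, and 5.8% and 7.35% among 9352 in the second. Whether the sets differ from each other could not be tested with 1 sample.

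Mesenchymal genes were higher mainly among cells that kept Krt14. There the median over 37 mesenchymal genes was 0.73 and 7 were 2-fold or more higher, among them Col3a1 (5426 against 1382 CPM, ratio 1.97) and Postn (1.90). Of 8 proteoglycans, 6 were 2-fold or more higher. Among cells with little Krt14 the mesenchymal median was -0.03 over 36 genes and none was past 2-fold, with Col3a1 at 7622 and 5656 CPM (0.43). Cxcl12 had ratios of 1.91 with Krt14 and 0.60 without. Epithelial genes had medians of -1.33 and -0.66 in the same order. Among cells that kept Krt14, the classes still differed in Krt14 (1965 against 5083 CPM) and in Epcam (16.7 against 66.3 CPM). Among cells with little Krt14, Epcam was at 0.571 and 0.420 CPM. The part of the cells with Epcam in this split was not tested. F11r (-1.29 and -1.83) and Lama5 (-0.85 and -1.46) were lower in both sets, while Krt5 and Trp63 were at -2.19 and -2.11 with Krt14 and under 10 CPM in both classes, so not measured, without.

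Proliferation genes showed the opposite split. Over all cells, 23 of 27 measured cell cycle genes were higher, 1 of them, Cdk1, past 2-fold (1.16), and the median was 0.42. Among cells with little Krt14 the median was 1.05 and 15 of 26 genes were 2-fold or more higher, including Cdk1 (105.1 against 32.3 CPM) and Ube2c (84.5 against 17.2 CPM), regulators of mitotic entry and exit. Among cells that kept Krt14 the median was 0.10 and 2 of 28 were. The shares of cells with Mki67 or Top2a were 16.7% of expressing (exact interval 9.64 to 26) and 15.03% of low cells (10.1 to 21.2). Cdk1 was present in 14.9%, 13.9%, 41.03% and 11.8% of the 4 groups of rising Vcam1, so its difference lay in the group at 50 to under 200 CPM. With the boundary at 100 CPM the cell cycle median was -0.11, and in plate columns 13 to 24 the median over 15 genes of G2 and M phase was -0.48 against 1.01 in columns 1 to 12.

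**Figure D5:**
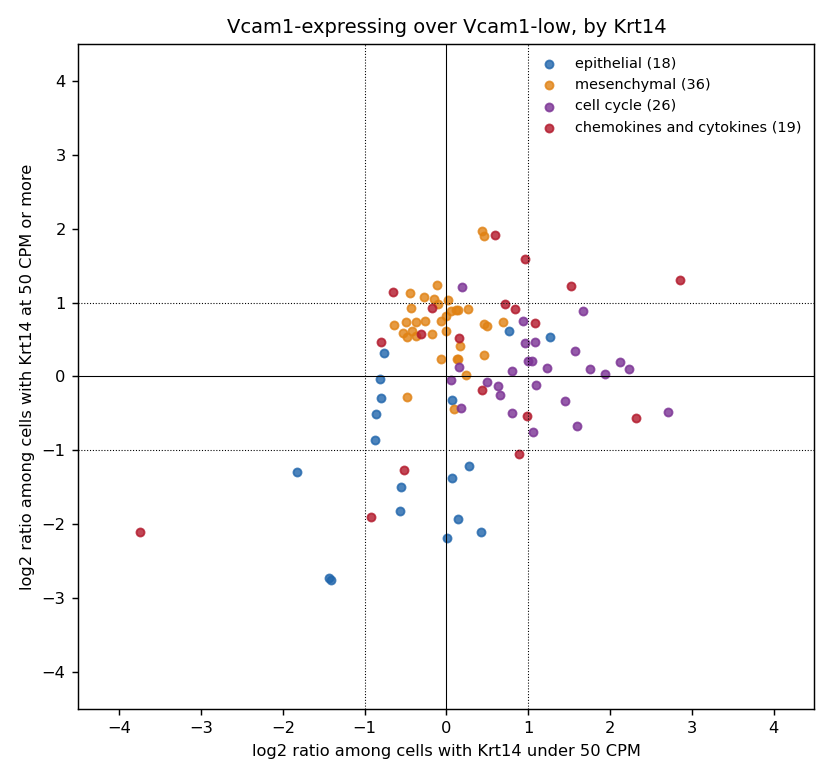
Log2 ratio (CPM + 1) of Vcam1-expressing over Vcam1-low cells for genes of 4 groups, among cells with Krt14 under 50 CPM (horizontal axis) and at 50 CPM or more (vertical axis), for genes measured in both sets, with dotted lines at 2-fold. Mesenchymal genes lie mostly above 0 on the vertical axis and near 0 on the horizontal axis, with medians of 0.73 and -0.03, and cell cycle genes lie to the right, with medians of 0.10 and 1.05.

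Some genes had like ratios whatever the Krt14 level and others did not. Mest (1.66 under 50 CPM and 1.60 at 50 CPM or more of Krt14), Osr1 (1.37 and 1.34), Il34 (1.53 and 1.23) and Csf1 (0.84 and 0.91) were such genes, and Il1rl1 had 1.87 and 1.08. Ccl2 had ratios of 1.08 and 0.72. Steap4 (1.35 and 1.53) and Nfia (1.29 and 1.09) were alike in both sets. Other genes of the 12 with the highest ratios differed in the same order. These were Fmod (-0.18 and 1.93), Pde4d (1.36 and 0.16), Rcan1 (2.20 and 0.67), Myd88 (1.21 and 0.42) and Bdnf (1.70 and 0.79). Icam1 changed sign, at 0.92 and -1.43, with 34.04 against 17.5 CPM in the first set and 38.5 against 105.4 CPM in the second.

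Growth factor genes were mixed. Of 16 measured receptor kinases and ligands, 12 were lower, and the median was -0.19. By 2-fold, 3 were lower and 1 higher, against 3.19% and 2.06% of all measured genes. Areg, an Egfr ligand of keratinocytes, had a ratio of -1.16, and Igf2 had 362.1 against 710.3 CPM (-0.97), while Igf1 had 156.6 against 86.7 CPM (0.85). Hgf, the ligand of Met, had a ratio of 2.49 from 4 expressing and 3 low cells. Fgfr1 and Met were near equal, at 0.14 and -0.04.

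Metalloproteases differed in how far they rested on single cells. Mmp10 was at 50.0 and 511.1 CPM (-3.33). Its highest low cell, at 12867 CPM, held 28.8% of the reads of its class. The Mmp10 ratio was -3.45 among cells with Krt14 under 50 CPM and -3.18 at 50 CPM or more. For Mmp3, 1 expressing cell at 307517 CPM held 64.7% of the reads of its class, and the ratio of 0.48 was -0.57 without the highest cell of each class. Mmp2, present in 98.9% and 90.2% of cells, had a ratio of 0.28, and Mmp14 one of 0.09.

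Hypoxia and glycolysis genes were slightly lower: 12 of 14 measured, none past 2-fold, with a median of -0.24 and the largest differences in Bnip3 (-0.95) and the glucose transporter gene Slc2a1 (-0.86). Class I antigen presentation genes were slightly higher, 7 of 9 measured, none past 2-fold, with a median of 0.35 and Psmb8 at 0.69. Interferon-induced genes had a median of 0.01 over 10, with 1 higher and 2 lower by 2-fold. Genes of TGF-beta signalling, the best known inducer of EMT, had a median of 0.04 over 16 and none past 2-fold, and YAP and TEAD target genes a median of 0.11 over 12. Wnt and BMP modulators had a median of -0.01 over 12, with Wif1 lower (-1.91), and of 6 Notch genes 1, Heyl, was 2-fold lower (-2.47), at 1.12 and 10.7 CPM. Smooth muscle contractile genes had a median of -0.16 over 8, none past 2-fold. The medians of immediate early, heat shock, p53 target and hair follicle lineage genes were 0.04, -0.06, -0.25 and 0.09.

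The Vcam1 classes crossed other divisions of the Epcam-negative cells without matching them. Sfrp2 was present in 37.8% and 28.3%, Aqp5 in 41.1% and 31.2%, and Acta2 in 78.9% and 72.3% of expressing and low cells. Each was thus seen in many cells of both classes, and whether the shares differ was not tested. No chromosome stood out as a block: the median ratio by chromosome ran from -0.10 to 0.06, and 12 genes within 5 Mb of Vcam1 had a median of 0.01.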

How the data were processed

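The deposited table holds raw read counts per gene and spike-in for each well. Per the submitters' processing notes, the authors used cutadapt 1.13, STAR 2.5.2b, HTSeq 0.6.0 and build GRCm38. Annotation release, strand setting and the handling of shared reads: not given in the sources used here. Genes that overlap or share sequence with others are therefore uncertain. Per the labels' protocols, Smart-seq2 cDNA was read as 50-base single reads without molecular identifiers, so intervals cover counting error only.

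Symbols and positions are from GENCODE vM21, matched without version: 49326 of 49585 identifiers matched and 259 did not. The 92 spike-ins stayed out of CPM. Cells were kept with 100000 or more gene reads, 2000 or more genes, at most 20% mitochondrial and at most 50% spike-in reads. Ratios are log2((CPM + 1)/(CPM + 1)) of reads summed over a class, measured means 10 CPM or more in either class, and Vcam1 was left out of counts. Presence used 1 seeded thinning. Intervals are exact: Poisson, Clopper-Pearson for shares and conditional binomial for ratios. No test was run, since the population is 1 sample. The ratio script was tested on simulated data. Python 3.11.15, NumPy 2.4.6, SciPy 1.17.1 and pandas 2.3.3 were used, and edgeR 4.0.16 for TMM factors only. No wells had identical counts.

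Members and lists were chosen with earlier results of these data known. Genes were named by rule: a fixed set of markers, receptors and regulators, the 2 to 4 members of each list with the largest absolute ratio, the 12 highest and 12 lowest among widely present genes, and the 10 most correlated with Vcam1. Other members are named as examples of their list, chosen after their values were seen. No sequence is shown, and 1 allele of the mice and 1 gene of a list are not reported here.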

Additional observations from a re-analysis of the deposited data

Results flagged for a closer look

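Vcam1 was found in wells that enter no comparison of the classes. The well with 50 Epcam-negative cells had Vcam1 at 103.3 CPM (16 of 154897 gene reads), and 1 of 62 Epcam-positive cells had Vcam1 at 84.6 CPM. The wells set up with 0 cells together had 19.4 CPM, from 2 of 103259 gene reads, where 3 reads would be 29.1 CPM.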

How the results depend on the processing

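The medians of the mesenchymal, epithelial and cell cycle groups kept their direction in every alternative tried, except that the cell cycle median was reversed at a Vcam1 boundary of 100 CPM (-0.11), where the share was 26.6% and the mesenchymal median 0.27. At 20 CPM the mesenchymal, epithelial and cell cycle medians were 0.18, -0.85 and 0.53. With the boundary at 5 thinned reads the epithelial median was -1.05 and the cell cycle median 0.19. Stricter cell filters gave an epithelial median of -1.05. Without the cells with Epcam the mesenchymal median was 0.17 and the epithelial median -0.81 over the genes then measured. Without the shallowest 25% of cells, an alternative chosen after seeing the data, they were 0.19 and -1.06.

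The shares of measured genes 2-fold higher and lower, 2.06% and 3.19%, grew in smaller sets of cells. They were 4.69% and 5.18% in plate columns 1 to 12, 5.43% and 8.22% among columns 13 to 24, 5.96% and 7.69% in rows D to I, and 4.29% and 6.08% in rows J to P. The mesenchymal medians there were 0.179, 0.33, 0.55 and 0.045, and the cell cycle medians 0.71, 0.13, 0.57 and 0.22. The epithelial median was -1.36 in columns 13 to 24, -0.53 in rows D to I and -1.45 in rows J to P. A pseudocount of 10 CPM gave 0.524% and 1.03%, with medians of -1.001 (epithelial) and 0.32 (cell cycle). A minimum of 1 CPM gave 5.48% and 8.07% and an epithelial median of -1.53. A minimum of 50 CPM gave 0.732% and 1.41% and a cell cycle median of 0.72.

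Scaling to spike-ins moved the median of all genes from -0.03 to 0.26 and gave 4.46% higher and 1.95% lower. The mesenchymal, epithelial and cell cycle medians were then 0.52, -0.94 and 0.71.

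Of 52 named genes past 2-fold, 8 were reversed in an alternative. These were Epcam without the Epcam cells (0.48), Sprr1b in columns 1 to 12 (0.079), Il33 in columns 13 to 24 (-1.79) and rows D to I (-0.12), and Tslp in columns 13 to 24 (0.98). In rows D to I, Fgf2 was at 0.89 and Lum at 1.46. In rows J to P, Ifit1 was at 0.38 and Usp18 at 1.34. The cause was not tested. No paired analysis was possible because the result comes from no test. Depth limits rare transcripts: in the shallowest kept cell, with 104330 gene reads, a level of 50 CPM rests on about 5 reads.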
